A study of Mus musculus with 27 samples.

Results

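The genes described here are 35 members of the antioxidant defence of murine lung, given by name and matched by symbol among the 56941 genes of the deposited tables. All 35 were found, and all 35 were among the 24629 genes that passed the filter on low counts. They comprise 4 genes of sensing and regulation (Nfe2l2, Keap1, Sqstm1, Osgin1), 6 of glutathione synthesis, import, reduction and export (Slc7a11, Gclc, Gclm, Gss, Gsr, Abcc1), and 9 of the thioredoxin and peroxiredoxin system (Txn1, Txnrd1, Srxn1, Prdx1 to Prdx6). Another 5 supply NADPH (G6pdx, Pgd, Taldo1, Tkt, Me1), 3 handle haem and iron (Hmox1, Ftl1, Fth1), 4 encode superoxide dismutases and catalase (Sod1, Sod2, Sod3, Cat) and 4 encode glutathione peroxidases (Gpx1 to Gpx4).

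Whole lungs of 27 male C57Bl/6 mice (genotype given as C57Bl/6J), 7 to 8 weeks old, were profiled by polyA-selected RNA sequencing in 4 groups. Mice were given 5 oropharyngeal doses of house dust mite extract (HDM, 10 µg in 50 µl) at intervals of 2 to 3 days, where HDM is a common inhaled allergen, or the same number of doses of the buffer PBS. A day after the last dose they were given 100 µl of saline (SAL) or of saline with combustion products (CP) of burned paper, plastic and plywood at 2 mg per ml, which is 200 µg per mouse, and lungs were taken 24 h later. The groups were HDM_CP (n = 7), HDM_SAL (n = 6), PBS_CP (n = 7) and PBS_SAL (n = 7), where HDM_CP received both agents and PBS_SAL received vehicles only, and libraries carry their label's number after the group. All mice were wild type. The labels do not state whether mice shared cages or litters, so p-values measure the spread between these libraries.

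NRF2, the product of Nfe2l2, is a transcription factor that KEAP1 marks for degradation until oxidants or electrophiles modify KEAP1. Stabilized NRF2 pairs with small MAF proteins at antioxidant response elements and raises genes that make glutathione, reduce thioredoxin, sequester iron and regenerate NADPH. The lung, exposed to oxygen and inhaled particles, also holds high levels of constitutive antioxidant enzymes, such as extracellular superoxide dismutase, peroxiredoxin 6 and plasma glutathione peroxidase.

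Promoter sequences were searched for the core of the antioxidant response element, because NRF2 raises genes of several of these roles. The motif was TGACNNNGC on the + strand of the gene or GCNNNGTCA, its reverse complement, in the 300 bases from 250 before to 50 after each RefSeq transcription start on GRCm38.p6. Of the 35 members, 29 had a promoter in the table, and 9 of these 29 (31.0%) held a match, while 14.0% of the 27025 genes with a promoter did. The matches were at Nfe2l2, Srxn1, Gclm, Prdx1, Pgd, Me1, Txnrd1, Sod1 and G6pdx, and Abcc1, Sod3, Prdx6, Hmox1, Gclc and Gsr had no entry. A match is a description of letters and not a site shown to be bound. The members were chosen in part around NRF2, so their share of matches is not a result of these data. The promoters of 4 members that the results turn on are shown 5′ to 3′ in the direction of transcription, with the match in capitals: Me1 (chr9:86695865-86696164, minus strand), the member with the smallest p in both allergen comparisons, and Txnrd1 (chr10:82858956-82859255, plus strand), Srxn1 (chr2:152105274-152105573, plus strand) and Slc7a11 (chr3:50443564-50443863, minus strand), 3 of the 4 members with the smallest p for combustion products against saline in PBS mice. Slc7a11 held no match in this window and is shown without capitals.
Me1: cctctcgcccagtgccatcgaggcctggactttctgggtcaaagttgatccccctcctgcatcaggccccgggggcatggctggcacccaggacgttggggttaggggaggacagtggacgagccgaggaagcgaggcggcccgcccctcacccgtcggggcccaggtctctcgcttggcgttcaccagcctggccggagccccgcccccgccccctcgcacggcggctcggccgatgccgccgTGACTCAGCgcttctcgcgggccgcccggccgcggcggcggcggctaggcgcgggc
Txnrd1: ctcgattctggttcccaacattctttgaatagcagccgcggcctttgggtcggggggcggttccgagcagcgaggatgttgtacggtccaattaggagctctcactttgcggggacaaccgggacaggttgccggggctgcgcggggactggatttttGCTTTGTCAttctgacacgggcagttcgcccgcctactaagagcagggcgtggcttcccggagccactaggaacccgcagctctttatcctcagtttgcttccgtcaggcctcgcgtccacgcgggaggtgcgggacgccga
Srxn1: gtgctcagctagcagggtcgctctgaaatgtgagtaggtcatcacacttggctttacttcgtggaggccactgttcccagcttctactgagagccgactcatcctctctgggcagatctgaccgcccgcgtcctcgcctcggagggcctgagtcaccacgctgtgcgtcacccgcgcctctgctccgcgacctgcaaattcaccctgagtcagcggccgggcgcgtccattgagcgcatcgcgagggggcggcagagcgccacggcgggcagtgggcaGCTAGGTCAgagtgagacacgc
Slc7a11: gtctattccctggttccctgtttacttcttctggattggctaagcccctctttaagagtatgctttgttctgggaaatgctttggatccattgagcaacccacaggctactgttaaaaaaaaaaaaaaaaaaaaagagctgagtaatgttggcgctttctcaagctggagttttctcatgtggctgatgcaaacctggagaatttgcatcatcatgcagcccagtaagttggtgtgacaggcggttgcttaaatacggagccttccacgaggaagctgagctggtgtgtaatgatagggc
The match in Me1 began 6 bases before the annotated start, that in Txnrd1 began 92 bases before it and that in Srxn1 began 28 bases after it. Me1 had another promoter in the table, and Txnrd1 had others, without a match.

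Library totals of the deposited estimated counts ran between 56.4 M and 84.5 M. CPM values, the counts scaled to library size, are given for comparing libraries within a gene, and TPM values, which take transcript length into account, for comparing genes. Each log2 fold change is followed by its standard error and was tested with edgeR's quasi-likelihood test, and a member is called where its p-value adjusted by Benjamini-Hochberg over all 24629 genes was under 0.05. Where 3 CPM values are given for a group, they are its lowest, median and highest library. The 8 markers of alveolar type 2 cells, which define lung, summed to between 30500 and 40040 TPM in all libraries. The library PBS_CP 57 stood apart in goblet cell markers, with a summed level of 356 TPM against 9.12 to 17.7 TPM in the other 6 PBS_CP libraries, a level within the range of HDM mice, while its summed alveolar macrophage markers, 917 TPM, were below those of every HDM library. The calls that involve PBS_CP are therefore also given without it. In whole lung, fewer cells of a type and less RNA per cell cannot be told apart.

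The members differed widely in level. Ferritin subunits led, with mean TPM over the 27 libraries of 2519 for the light chain Ftl1 and 2072 for the heavy chain Fth1, the iron store of the cell. They were followed by Gpx3, the secreted glutathione peroxidase, at 1469 TPM, by Sod1, cytosolic superoxide dismutase, at 664 TPM, and by Prdx6, a peroxiredoxin of alveolar epithelium, at 642 TPM. At the other end were Abcc1, an exporter of glutathione conjugates, at 15.7 TPM and Slc7a11, the cystine importer that feeds glutathione synthesis, at 1.55 TPM. Slc7a11 still had between 107 and 1527 estimated counts in each library.

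**Figure D1:**
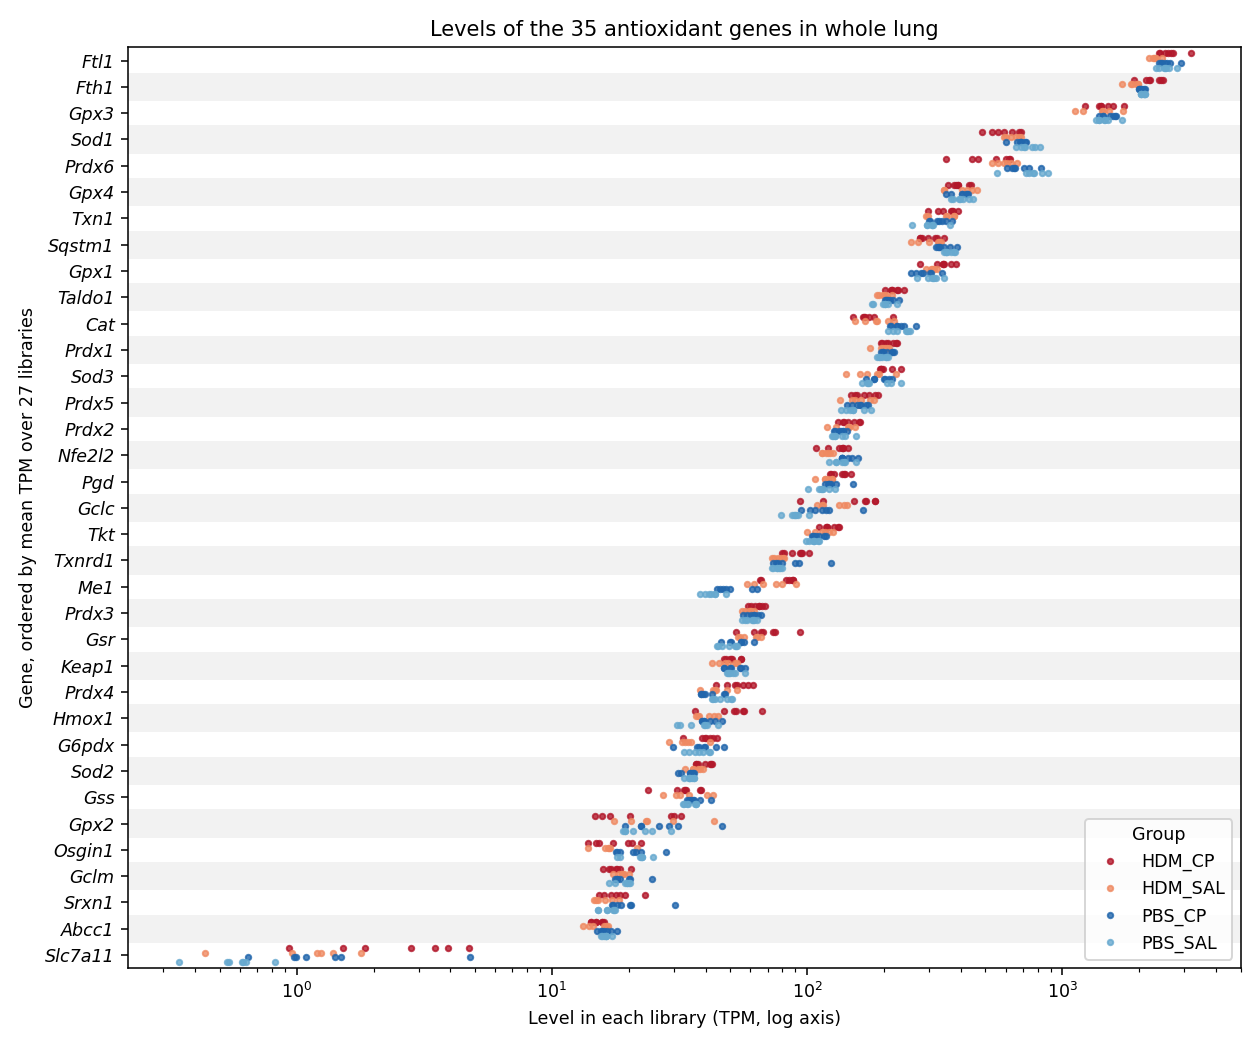
Level of each of the 35 genes in each of the 27 libraries, in TPM on a log axis, with genes ordered by mean TPM and points coloured by group. Single libraries run between 0.345 TPM for Slc7a11 and 3182 TPM for Ftl1, and Slc7a11 shows the widest scatter.

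Together the 35 members held 11210 ± 437 TPM in HDM_CP, 10350 ± 359 TPM in HDM_SAL, 11100 ± 282 TPM in PBS_CP and 11070 ± 310 TPM in PBS_SAL lungs (SD, n = 7, 6, 7 and 7). These sums are 1.12%, 1.03%, 1.11% and 1.11% of all transcripts, and ferritin made up between 39.2% and 48.6% of the summed level in each library. Spread between libraries within a group, as a coefficient of variation of CPM, was smallest for Fth1 (4.33%), Tkt (5.57%) and Prdx3 (5.73%). It was largest for Slc7a11 (56.1%), Gpx2 (32.6%), Osgin1 (17.5%) and Gclc (17.4%). Slc7a11 ranged 13.5-fold over the 27 libraries, whereas Prdx3 and Keap1 each ranged 1.23-fold. Ftl1 has processed copies in the annotation, of which Ftl1-ps1 held 1178 to 2180 estimated counts per library and Ftl2-ps 308 to 597, and Gpx4-ps2 held 1032 to 1887. Reads may be split between these copies and their parent genes, so the levels of Ftl1 and Gpx4 are uncertain to that extent.

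The comparison of HDM_SAL with PBS_SAL asked what the allergen alone did to the antioxidant genes. Me1, Gclc and Gsr rose in HDM_SAL lungs, and Sqstm1 fell. These were 4 of 35 members called, 3 higher and 1 lower, where 5.44% of all tested genes were called (3.19% higher and 2.25% lower). On log2(TPM + 1) in place of counts, the genes called over the whole table were 521 higher and 849 lower, against 786 higher and 553 lower. The median log2 fold change of the members was 0.0465, against 0.0133 over all genes, and 31 members were not called.

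Among the regulators, Sqstm1, which encodes the autophagy receptor p62 that binds KEAP1, had 301, 324 and 357 CPM in HDM_SAL lungs, against 354, 368 and 405 CPM in PBS_SAL lungs. The ranges overlapped only by HDM_SAL 100, which lay just above PBS_SAL 64. The log2 fold change was -0.21 ± 0.06 (adjusted p = 0.025). Nfe2l2 had 144 ± 6.44 CPM in HDM_SAL and 159 ± 12.9 CPM in PBS_SAL lungs and was not called (log2 fold change -0.14 ± 0.06, adjusted p = 0.15). Keap1 averaged 73.5 ± 3.55 CPM in HDM_SAL and 75.1 ± 4.80 CPM in PBS_SAL lungs, a difference smaller than the SD in each group. Osgin1, an oxidative stress-induced growth inhibitor, averaged 17.5 ± 3.32 CPM in HDM_SAL and 21.3 ± 2.26 CPM in PBS_SAL lungs and was not called (log2 fold change -0.28 ± 0.13, adjusted p = 0.21).

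In glutathione metabolism, Gclc, the catalytic subunit of the rate-limiting enzyme of glutathione synthesis, had 174, 212 and 251 CPM in HDM_SAL lungs, against 126, 144 and 165 CPM in PBS_SAL lungs. Every HDM_SAL library lay above every PBS_SAL library, with a log2 fold change of 0.54 ± 0.13 (adjusted p = 0.016). Gsr, which returns oxidized glutathione to its reduced form, had 67.2, 78.1 and 92.4 CPM in HDM_SAL lungs, against 55.6, 61.6 and 66.2 CPM in PBS_SAL lungs. The groups again did not overlap, and the log2 fold change was 0.34 ± 0.10 (adjusted p = 0.037). Gclm, the modifier subunit that partners GCLC, averaged 48.2 ± 2.17 CPM in HDM_SAL and 47.0 ± 3.66 CPM in PBS_SAL lungs, a difference within the SD. Slc7a11 had 1.88, 5.45 and 8.42 CPM in HDM_SAL lungs, against 1.51, 2.66 and 3.39 CPM in PBS_SAL lungs. All HDM_SAL libraries but 52 were above every PBS_SAL library, and the gene was not called (log2 fold change 1.04 ± 0.41, adjusted p = 0.14).

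Me1, the cytosolic malic enzyme that yields NADPH, had the smallest p of the members. It lies on chr9:86463424-86578006, minus strand, of GRCm39 in the deposited annotation. Me1 had 92.1, 112 and 156 CPM in HDM_SAL lungs, against 61.6, 65.2 and 75.3 CPM in PBS_SAL lungs, with no overlap. This was a log2 fold change of 0.83 ± 0.11, or 1.78-fold (adjusted p = 7e-05). Me1, Gclc and Gsr were the 3 members whose groups did not overlap, which held for 1.97% of all tested genes. The other 4 members that supply NADPH were not called, with Tkt, transketolase, at 158 ± 11.8 CPM in HDM_SAL and 144 ± 5.77 CPM in PBS_SAL lungs.

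No member of the thioredoxin and peroxiredoxin system, of haem and iron, of the dismutases and catalase or of the glutathione peroxidases was called for HDM_SAL against PBS_SAL. Cat, catalase of the peroxisome, came nearest, with 197, 238 and 281 CPM in HDM_SAL lungs, against 254, 293 and 314 CPM in PBS_SAL lungs. Its groups overlapped, and its log2 fold change of -0.27 ± 0.08 had an adjusted p of 0.051. Txnrd1, thioredoxin reductase, averaged 107 ± 7.01 CPM in HDM_SAL and 98.2 ± 3.23 CPM in PBS_SAL lungs. Srxn1, sulfiredoxin, which reactivates overoxidized peroxiredoxins, averaged 22.0 ± 1.99 CPM in HDM_SAL and 21.8 ± 1.48 CPM in PBS_SAL lungs. Hmox1, haem oxygenase 1, averaged 30.8 ± 2.70 CPM in HDM_SAL and 27.7 ± 3.64 CPM in PBS_SAL lungs, and none of these 3 differences passed the test.

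Among the remaining enzymes, Prdx1 averaged 218 ± 22.7 CPM in HDM_SAL and 208 ± 8.90 CPM in PBS_SAL lungs. Sod2, the mitochondrial manganese dismutase, averaged 97.3 ± 9.05 CPM in HDM_SAL and 89.1 ± 2.76 CPM in PBS_SAL lungs (log2 fold change 0.13 ± 0.05, adjusted p = 0.18). Sod3, the extracellular dismutase, averaged 328 ± 41.2 CPM in HDM_SAL and 338 ± 45.0 CPM in PBS_SAL lungs. None of these was called. Gpx2, a glutathione peroxidase of epithelium, averaged 14.5 ± 5.42 CPM in HDM_SAL and 11.7 ± 1.93 CPM in PBS_SAL lungs, and Gpx3 averaged 1019 ± 165 CPM in HDM_SAL and 1092 ± 50.2 CPM in PBS_SAL lungs, both within their spread. The 31 members that were not called had log2 fold changes from -0.28 to 1.04.

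Of the 4 calls, that of Me1 alone held in each of 27 other analyses of this comparison (14 other settings and 13 with a library left out). Without HDM_SAL 50, 54 or 99, Gclc lost its call (adjusted p up to 0.056), and Sqstm1 lost it without those and without PBS_SAL 80 or 81 (adjusted p up to 0.073). Gsr lost it without the same 5 libraries and without PBS_SAL 64 or 79 (adjusted p up to 0.12). Gsr also lost its call in 6 of the 14 settings, with adjusted p up to 0.30, among them runs of library numbers as a block (adjusted p = 0.079), while Cat was called in 12 of the 14. With club and ciliated marker scores as covariates, Gclc, Gsr and Sqstm1 all lost their calls. These scores are the mean log2 CPM of each marker list, scaled over the 27 libraries. HDM_SAL 50, 54 and 99 had the highest scores of their group (club 1.54, 2.71 and 0.355, ciliated 1.47, 2.825 and 1.01). Markers of other cells differed between these groups as well. Goblet cell markers were called higher in 7 of 7 genes (summed 40.7 to 1632 TPM in HDM_SAL, against 7.33 to 30.1 TPM in PBS_SAL lungs) and alveolar macrophage markers in 2 of 8 (1603 to 3330 TPM in HDM_SAL, against 536 to 966 TPM in PBS_SAL lungs). Of these 8 markers only 3 had a positive log2 fold change, and the median was -0.0981. Their sum thus does not describe the list as a whole. Markers of monocytes and recruited macrophages were called higher in 4 of 12 (410 to 780 TPM in HDM_SAL, against 367 to 657 TPM in PBS_SAL lungs), and those of smooth muscle in 3 of 5. Ciliated markers were called higher in 1 of 10, with 9 positive and 7 at an unadjusted p under 0.05. They summed to 705 to 1093 TPM in HDM_SAL and 722 to 967 TPM in PBS_SAL lungs. Fibroblast markers fell in 3 of 7 (3141 to 4419 TPM in HDM_SAL, against 4887 to 6163 TPM in PBS_SAL lungs). Apart from the run with club and ciliated scores, the part of these markers in the results was not tested.

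**Figure D2:**
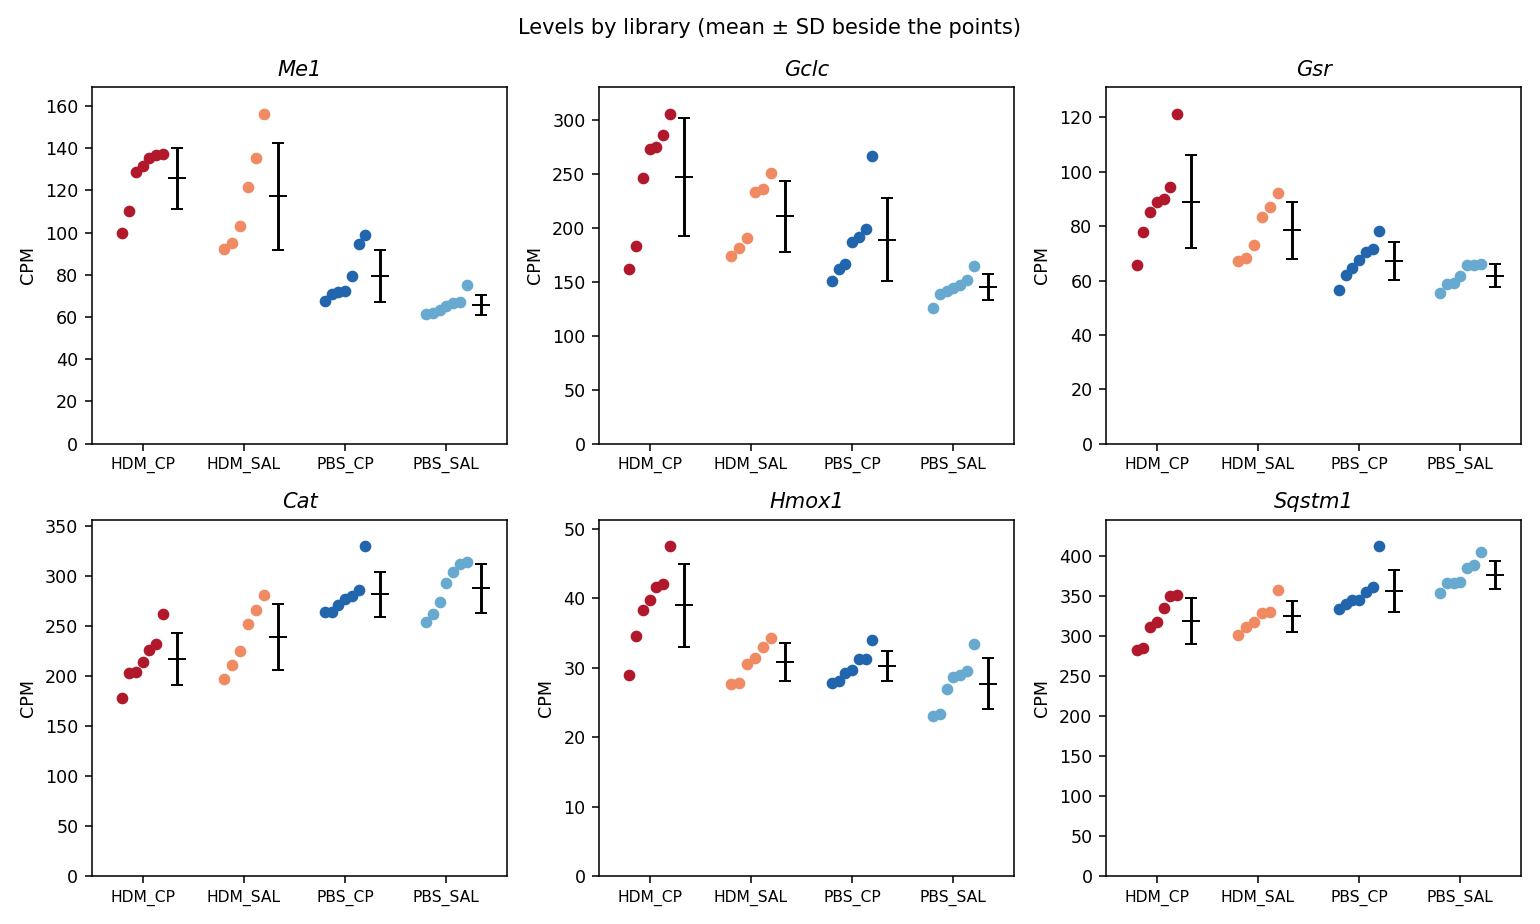
CPM of 6 members in each library, by group, with the mean and SD beside the points and an axis from 0. Me1 lies at 92.1 to 156 CPM in HDM_SAL and 61.6 to 75.3 CPM in PBS_SAL libraries, and every HDM_CP library of Cat (178 to 261 CPM) lies below every PBS_CP library (263 to 329 CPM).

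The comparison of HDM_CP with PBS_CP repeated the allergen contrast in mice that had all received combustion products, with no library shared with the comparison above. Here 10 of 35 members were called, 8 higher and 2 lower, where 7.87% of all tested genes were called (5.6% higher and 2.27% lower). Me1, Gsr, Prdx4, Tkt, Hmox1, Fth1, Sod2 and Gpx1 rose in HDM_CP lungs, and Cat and Prdx6 fell. Me1 and Gsr were thus called higher by allergen with and without combustion products. The median log2 fold change of the 35 members was 0.0772, against 0.00189 over all genes.

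Among the regulators none was called. Sqstm1 averaged 319 ± 28.2 CPM in HDM_CP and 356 ± 26.3 CPM in PBS_CP lungs (log2 fold change -0.16 ± 0.05, adjusted p = 0.069). Of 28 other analyses, 7 called Sqstm1 lower, DESeq2 among them (adjusted p = 0.036). Nfe2l2 averaged 154 ± 12.46 CPM in HDM_CP and 165 ± 11.7 CPM in PBS_CP lungs, and Keap1 75.6 ± 5.52 CPM in HDM_CP and 75.5 ± 5.14 CPM in PBS_CP lungs. Osgin1 averaged 17.3 ± 3.77 CPM in HDM_CP and 20.8 ± 3.51 CPM in PBS_CP lungs (log2 fold change -0.26 ± 0.12, adjusted p = 0.22).

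Gsr had 65.6, 88.8 and 121 CPM in HDM_CP lungs, against 56.4, 67.6 and 78.2 CPM in PBS_CP lungs, with overlap at the low end of HDM_CP. Its log2 fold change was 0.40 ± 0.10 (adjusted p = 0.0079). Gclc had 162, 274 and 306 CPM in HDM_CP lungs, against 150, 187 and 267 CPM in PBS_CP lungs. In the main fit with all libraries it was not called (log2 fold change 0.39 ± 0.13, adjusted p = 0.061). Of 14 other settings, 5 called it, DESeq2 among them (adjusted p = 0.024). It was called without PBS_CP 76, the highest PBS_CP library, at 0.49 ± 0.12 (adjusted p = 0.012), and also without HDM_CP 45 or without HDM_CP 66, the lowest HDM_CP libraries. Slc7a11 had 3.90, 11.7 and 19.0 CPM in HDM_CP lungs, against 2.73, 4.57 and 20.4 CPM in PBS_CP lungs. PBS_CP 76 gave the highest value of either group and the next PBS_CP library had 6.27 CPM. The log2 fold change was 0.71 ± 0.38 with all libraries (adjusted p = 0.31) and 1.29 ± 0.32 without PBS_CP 76 (adjusted p = 0.013). Gclm, at 45.0 ± 4.19 CPM in HDM_CP and 48.5 ± 7.03 CPM in PBS_CP lungs, was not called.

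Prdx4, the peroxiredoxin of the endoplasmic reticulum, had 22.2, 25.3 and 28.6 CPM in HDM_CP lungs, against 17.5, 18.7 and 22.7 CPM in PBS_CP lungs. Only PBS_CP 102 reached the range of HDM_CP, and the log2 fold change was 0.37 ± 0.08 (adjusted p = 0.0039). Prdx6, which also has phospholipase activity in surfactant turnover, had 369, 658 and 702 CPM in HDM_CP lungs, against 651, 718 and 914 CPM in PBS_CP lungs. The log2 fold change was -0.37 ± 0.12 (adjusted p = 0.048), and 3 HDM_CP libraries, 49, 67 and 98, at 486, 509 and 369 CPM, lay below all PBS_CP libraries. Those 3 libraries also had the lowest club cell marker sums of their group, 68620, 65130 and 47920 TPM. By the club score, HDM_CP 66 (-0.818) was below HDM_CP 67 (-0.683) and HDM_CP 49 (0.139). Prdx6 in HDM_CP 66 deviated by 0.0419 on the log2 scale from its group median. With club and ciliated scores as covariates Prdx6 kept its call, and the part of club markers was not otherwise tested. Txnrd1 (118 ± 7.82 CPM in HDM_CP and 114 ± 19.4 CPM in PBS_CP lungs), Srxn1 (24.2 ± 3.42 CPM in HDM_CP and 26.8 ± 6.31 CPM in PBS_CP lungs) and Prdx1 (223 ± 15.1 CPM in HDM_CP and 217 ± 12.46 CPM in PBS_CP lungs) differed by less than the SD within a group.

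Me1 had 100.0, 132 and 137 CPM in HDM_CP lungs, against 67.8, 72.5 and 98.9 CPM in PBS_CP lungs. The groups did not overlap, though PBS_CP 76 came within about 1 CPM of the lowest HDM_CP library, and the log2 fold change was 0.66 ± 0.11 (adjusted p = 0.00026). Tkt had 158, 168 and 184 CPM in HDM_CP lungs, against 133, 149 and 157 CPM in PBS_CP lungs. It did not overlap either, with a smaller log2 fold change of 0.19 ± 0.05 (adjusted p = 0.0066).

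Hmox1, which breaks down haem to biliverdin, iron and carbon monoxide, had 29.0, 39.7 and 47.5 CPM in HDM_CP lungs, against 27.8, 29.7 and 33.95 CPM in PBS_CP lungs. All HDM_CP libraries but 45 exceeded all PBS_CP libraries, and the log2 fold change was 0.37 ± 0.09 (adjusted p = 0.0077). Fth1 had 1427, 1555 and 1716 CPM in HDM_CP lungs, against 1384, 1414 and 1476 CPM in PBS_CP lungs. The difference was small, a log2 fold change of 0.15 ± 0.04 (adjusted p = 0.028). Ftl1, at 1198 ± 98.2 CPM in HDM_CP and 1153 ± 91.0 CPM in PBS_CP lungs, was not called.

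Cat had 178, 214 and 261 CPM in HDM_CP lungs, against 263, 277 and 329 CPM in PBS_CP lungs. No library overlapped, and the log2 fold change was -0.38 ± 0.08 (adjusted p = 0.003). Sod2 had 94.9, 102 and 109 CPM in HDM_CP lungs, against 77.6, 91.4 and 93.5 CPM in PBS_CP lungs. It rose without overlap, by 0.22 ± 0.05 on the log2 scale (adjusted p = 0.0083). Me1, Tkt and Sod2 above and Cat below were thus the 4 members without overlap, which held for 1.72% of all tested genes. Sod3 averaged 364 ± 39.9 CPM in HDM_CP and 342 ± 29.2 CPM in PBS_CP lungs and was not called.

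Gpx1, the abundant cytosolic glutathione peroxidase, had 134, 172 and 190 CPM in HDM_CP lungs, against 130, 140 and 172 CPM in PBS_CP lungs. The ranges overlapped only by HDM_CP 66, where the next HDM_CP library had 166 CPM, and by PBS_CP 102, the highest PBS_CP library. The log2 fold change was 0.23 ± 0.07 (adjusted p = 0.034). Gpx2 averaged 12.1 ± 4.55 CPM in HDM_CP and 14.7 ± 5.03 CPM in PBS_CP lungs, and Gpx3 1089 ± 134 CPM in HDM_CP and 1032 ± 66.6 CPM in PBS_CP lungs, neither of them called. The 25 members that were not called had log2 fold changes from -0.28 to 0.71.

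Me1, Gsr, Prdx4, Sod2 and Cat were called in all 28 other analyses of this comparison, whereas Fth1, Gpx1 and Prdx6 kept their call in 18, 18 and 16 of them. Leaving out PBS_CP 75, 76 or 101, or HDM_CP 49 or 98, ended the calls of all 3 of these genes (adjusted p up to 0.11). Fth1 and Gpx1 lost theirs without HDM_CP 97, Gpx1 and Prdx6 without HDM_CP 67, Gpx1 without HDM_CP 45 or PBS_CP 59, and Prdx6 without PBS_CP 57, 58 or 102. With runs of library numbers as a block, Prdx6 had an adjusted p of 0.059. With club and ciliated marker scores as covariates, every member called here kept its call. Gclc was then also called higher, and Osgin1, Sod1 and Sqstm1 were called lower. Without PBS_CP 57 the test called 9 members, 8 higher and 1 lower, and Prdx6 had an adjusted p of 0.058. Markers of monocytes and recruited macrophages rose in 9 of 12 genes (summed 539 to 1510 TPM in HDM_CP, against 379 to 486 TPM in PBS_CP lungs) and those of alveolar macrophages in 2 of 8 (1816 to 5711 TPM in HDM_CP, against 595 to 917 TPM in PBS_CP lungs). Only 3 of the 8 alveolar macrophage markers had a positive log2 fold change, with a median of -0.042. Markers of neutrophils rose in 3 of 8 (165 to 662 TPM in HDM_CP, against 139 to 290 TPM in PBS_CP lungs) and of goblet cells in 6 of 7 (59.7 to 969 TPM in HDM_CP, against 9.12 to 356 TPM in PBS_CP lungs, where the highest is PBS_CP 57). Eosinophil markers rose in 4 of 6 (168 to 590 TPM in HDM_CP, against 91.6 to 189 TPM in PBS_CP lungs). Alveolar type 1 markers fell in 2 of 6 (3492 to 5484 TPM in HDM_CP, against 5058 to 6031 TPM in PBS_CP lungs). Fibroblast markers were called lower in 2 of 7 and higher in 1 (2312 to 4887 TPM in HDM_CP, against 4300 to 5381 TPM in PBS_CP lungs), and club markers lower in 1 of 8 and higher in 1 (47920 to 124400 TPM in HDM_CP, against 82960 to 105700 TPM in PBS_CP lungs). Apart from the run with club and ciliated scores, the part of these markers in the results was not tested.

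**Figure D3:**
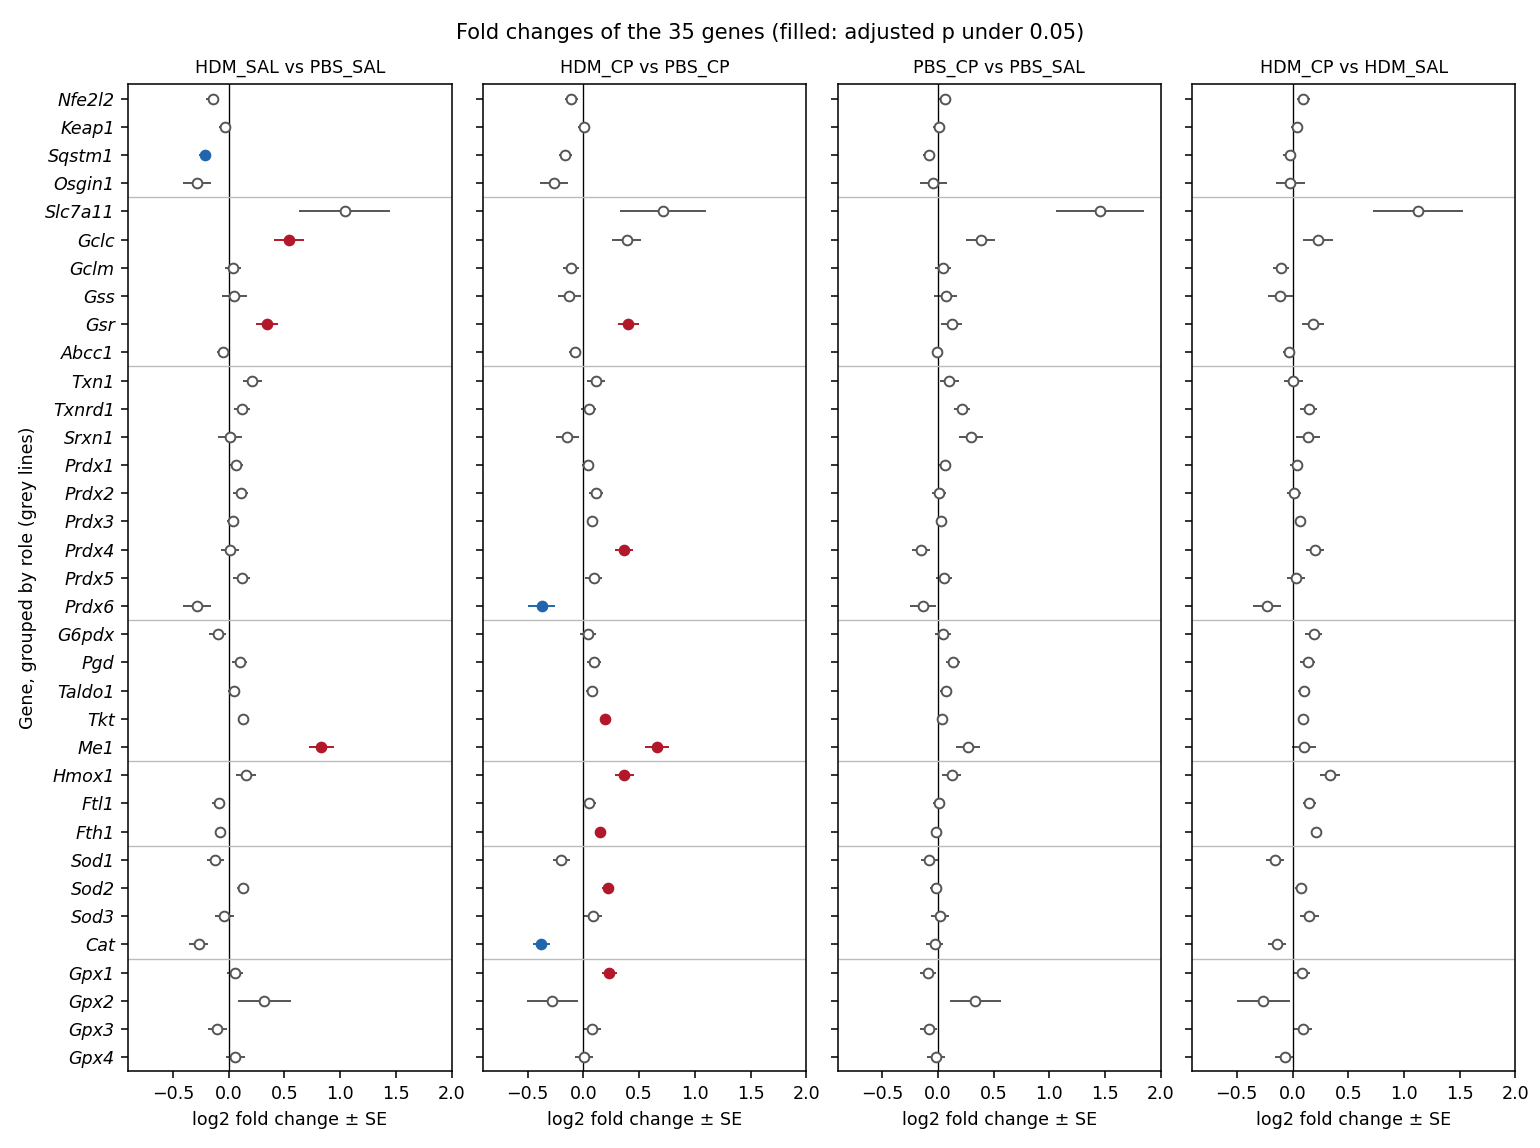
Log2 fold change of each of the 35 genes in 4 comparisons, with bars of 1 standard error, genes grouped by role and filled points where the adjusted p was under 0.05 (red higher, blue lower). Filled points number 4 for HDM_SAL against PBS_SAL, 10 for HDM_CP against PBS_CP and 0 in both comparisons of combustion products with saline.

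The comparison of PBS_CP with PBS_SAL asked what combustion products did in lungs without allergen, and it shared its PBS_SAL libraries with the allergen comparison. None of the 35 members was called by edgeR, where 0.00812% of all tested genes were called, and 6 members had an unadjusted p under 0.05. Over the whole table, 5.45% of genes fell under 0.05 before adjustment. DESeq2 and limma voom also called 0 members, among 32 and 10 genes. The 6 members, Slc7a11, Txnrd1, Gclc, Srxn1, Me1 and Pgd, all had positive log2 fold changes.

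Slc7a11 had 2.73, 4.57 and 20.4 CPM in PBS_CP lungs, against 1.51, 2.66 and 3.39 CPM in PBS_SAL lungs. All PBS_CP libraries but 101 were above all PBS_SAL libraries, and PBS_CP 76 was far above the rest. The log2 fold change was 1.45 ± 0.40 (adjusted p = 0.41), and 0.88 ± 0.31 without PBS_CP 76 (adjusted p = 0.77). Txnrd1 had 98.0, 107 and 155 CPM in PBS_CP lungs, against 93.5, 98.6 and 101 CPM in PBS_SAL lungs. All PBS_CP libraries but 58 exceeded all PBS_SAL libraries, for a log2 fold change of 0.22 ± 0.07 (adjusted p = 0.58), and of 0.13 ± 0.05 without PBS_CP 76. Gclc had 150, 187 and 267 CPM in PBS_CP lungs, against 126, 144 and 165 CPM in PBS_SAL lungs, with a log2 fold change of 0.38 ± 0.13 (adjusted p = 0.65). Srxn1 had 22.3, 24.1 and 40.3 CPM in PBS_CP lungs, against 19.7, 22.3 and 23.6 CPM in PBS_SAL lungs. The log2 fold change was 0.30 ± 0.10 (adjusted p = 0.71), and 0.17 ± 0.08 without PBS_CP 76. The promoters of Txnrd1 and Srxn1 printed above hold the searched motif, the window searched for Slc7a11 does not, and Gclc had no entry. Other promoters of Txnrd1 held no match. Any part of the motif in these values was not tested.

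No other member had an unadjusted p under 0.05 in PBS_CP against PBS_SAL lungs. Nfe2l2 averaged 165 ± 11.7 CPM in PBS_CP and 159 ± 12.9 CPM in PBS_SAL lungs, and Sqstm1 356 ± 26.3 CPM in PBS_CP and 376 ± 17.4 CPM in PBS_SAL lungs. Hmox1 averaged 30.2 ± 2.15 CPM in PBS_CP and 27.7 ± 3.64 CPM in PBS_SAL lungs, and Gclm 48.5 ± 7.03 CPM in PBS_CP and 47.0 ± 3.66 CPM in PBS_SAL lungs. Cat averaged 282 ± 22.7 CPM in PBS_CP and 287 ± 24.3 CPM in PBS_SAL lungs. None of these was called, and the median log2 fold change of the 35 members was 0.0333, against 0.00193 over all genes. No member was called without PBS_CP 57 either.

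The comparison of HDM_CP with HDM_SAL asked the same of allergic lungs, and it shared its HDM_SAL libraries with the first allergen comparison and its HDM_CP libraries with the other. None of the 35 members was called by edgeR, where 0.00406% of all tested genes were called, while 8 members had an unadjusted p under 0.05, all with positive fold changes. DESeq2 called 2 members, Fth1 and Hmox1, among 192 genes, and limma voom with quality weights called 1, Fth1, among 3 genes. Over the whole table, 9.69% of genes fell under 0.05 before adjustment. The median log2 fold change of the 35 members was 0.0859, against -0.00145 over all genes.

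Fth1 had 1427, 1555 and 1716 CPM in HDM_CP lungs, against 1285, 1363 and 1412 CPM in HDM_SAL lungs. It was the 1 member without overlap between these groups, which held for 0.158% of all tested genes. Its log2 fold change was 0.21 ± 0.04 (adjusted p = 0.096), and 0.24 ± 0.04 without HDM_CP 45 (adjusted p = 0.014). Hmox1 had 29.0, 39.7 and 47.5 CPM in HDM_CP lungs, against 27.7, 31.0 and 34.3 CPM in HDM_SAL lungs. All HDM_CP libraries but 45 exceeded all HDM_SAL libraries, for a log2 fold change of 0.34 ± 0.09 (adjusted p = 0.17), and of 0.40 ± 0.08 without HDM_CP 45 (adjusted p = 0.024). Ftl1 averaged 1198 ± 98.2 CPM in HDM_CP and 1078 ± 48.1 CPM in HDM_SAL lungs, so all 3 haem and iron members had an unadjusted p under 0.05.

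Slc7a11 had 3.90, 11.7 and 19.0 CPM in HDM_CP lungs, against 1.88, 5.45 and 8.42 CPM in HDM_SAL lungs, with a log2 fold change of 1.13 ± 0.41 (adjusted p = 0.33). Its 4 highest HDM_CP libraries, 97, 67, 49 and 98, were above all HDM_SAL libraries. Gclc averaged 248 ± 54.5 CPM in HDM_CP and 211 ± 32.9 CPM in HDM_SAL lungs, and Gclm 45.0 ± 4.19 CPM in HDM_CP and 48.2 ± 2.17 CPM in HDM_SAL lungs. Txnrd1 averaged 118 ± 7.82 CPM in HDM_CP and 107 ± 7.01 CPM in HDM_SAL lungs, and Nfe2l2 154 ± 12.46 CPM in HDM_CP and 144 ± 6.44 CPM in HDM_SAL lungs. None of these differences passed the test. Markers of neutrophils summed to 165 to 662 TPM in HDM_CP and 116 to 214 TPM in HDM_SAL lungs, with 8 of 8 at an unadjusted p under 0.05 and 0 called. Those of monocytes and recruited macrophages summed to 539 to 1510 TPM in HDM_CP and 410 to 780 TPM in HDM_SAL lungs, with 10 of 12 at an unadjusted p under 0.05 and 0 called. Club markers summed to 47920 to 124400 TPM in HDM_CP and 78470 to 147700 TPM in HDM_SAL lungs, with 5 of 8 at an unadjusted p under 0.05, 0 called and a median log2 fold change of -0.389. Ciliated markers summed to 519 to 904 TPM in HDM_CP and 705 to 1093 TPM in HDM_SAL lungs, with 0 of 10 positive, 1 at an unadjusted p under 0.05 and 0 called. Apart from the run with club and ciliated scores as covariates, their part in the values of the members was not tested.

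**Figure D4:**
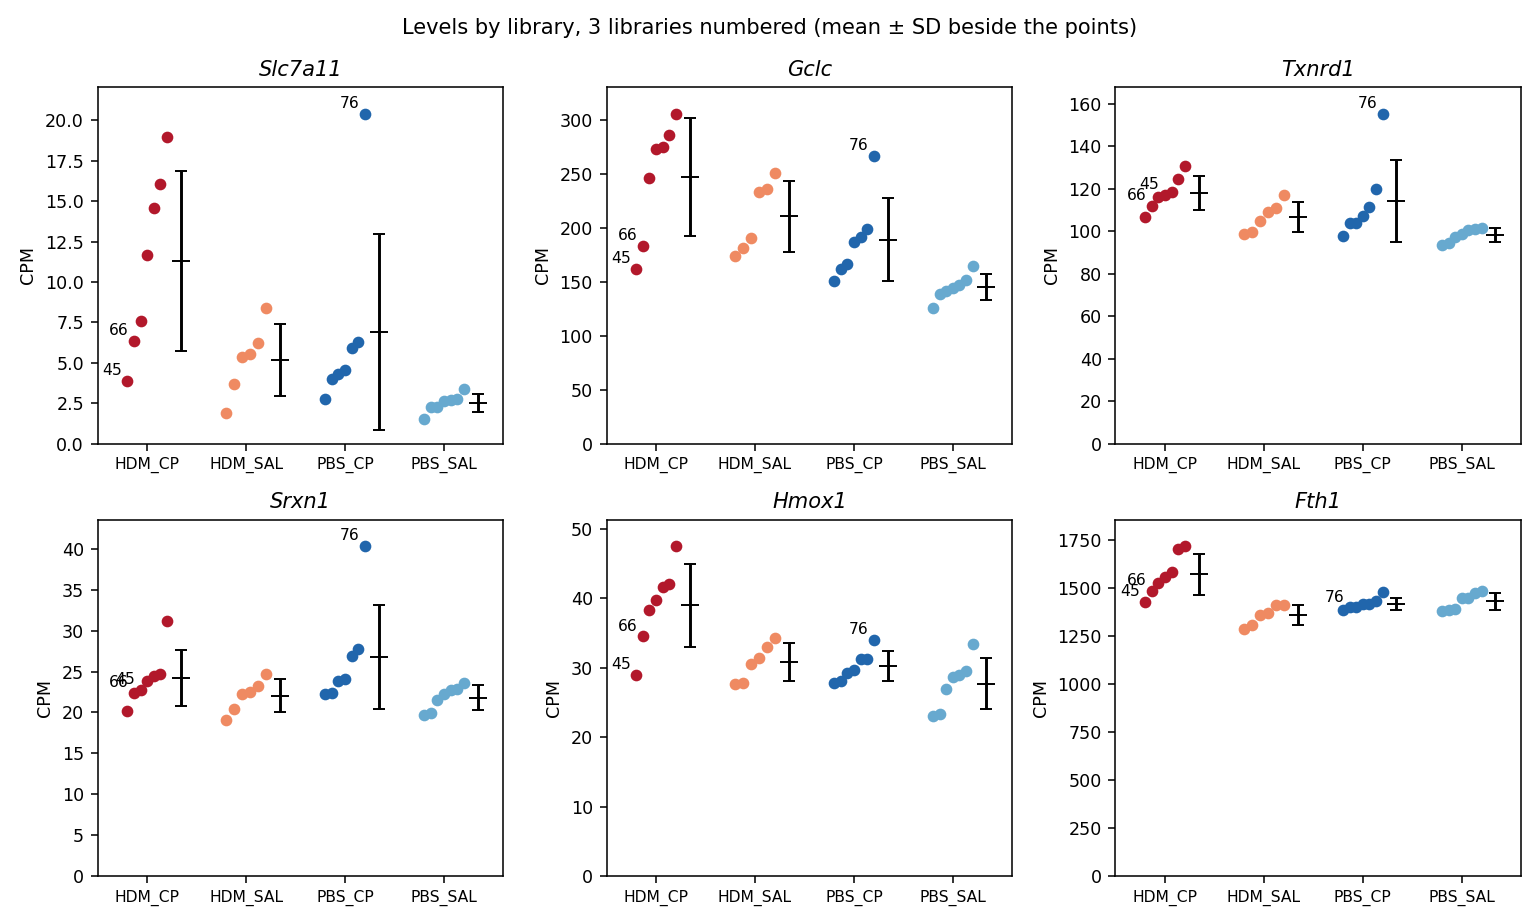
CPM of 6 members in each library, by group, with the mean and SD beside the points, an axis from 0 and 3 libraries numbered. PBS_CP 76 stands at 20.4 CPM for Slc7a11, 155 CPM for Txnrd1 and 40.3 CPM for Srxn1, and HDM_CP 45 and 66 are the lowest HDM_CP libraries for Slc7a11, Gclc, Hmox1 and Fth1.

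Averaged over HDM and PBS mice, the effect of combustion products gave 13 members with an unadjusted p under 0.05, and edgeR called none of the 35, where 0.0487% of all tested genes were called (0.0406% higher). Over the whole table, 8.84% of genes fell under 0.05 before adjustment. DESeq2 called 3 members, Slc7a11, Hmox1 and Fth1, among 176 genes, and limma voom called 0 members among 30 genes. The 3 members with the smallest p were Slc7a11 (log2 fold change 1.29 ± 0.29, adjusted p = 0.097), Hmox1 (0.23 ± 0.06, adjusted p = 0.16) and Txnrd1 (0.18 ± 0.05, adjusted p = 0.18). Next were Gclc (0.31 ± 0.09, adjusted p = 0.25) and Srxn1 (0.22 ± 0.07, adjusted p = 0.32). Slc7a11 and Hmox1 were called without HDM_CP 45 (adjusted p = 0.026 and 0.028), and Slc7a11 was called without HDM_CP 66 (adjusted p = 0.045). Without PBS_CP 57 no member was called here or in the interaction.

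The interaction tested whether the effect of combustion products differed between HDM and PBS mice. edgeR called 0 of 35 members and 0% of all tested genes, with 2 members and 1571 genes at an unadjusted p under 0.05. DESeq2 called 6 genes, none of them a member, and limma voom called 0 genes. The 2 members were Fth1 (log2 difference of the effects 0.22 ± 0.06, adjusted p = 0.74) and Prdx4 (0.35 ± 0.11, adjusted p = 0.74). Fth1 was 0.21 ± 0.04 higher on the log2 scale in HDM_CP than in HDM_SAL lungs, and its log2 fold change in PBS_CP against PBS_SAL lungs was -0.01 ± 0.04. The next member by p was Gpx2 (-0.60 ± 0.33, adjusted p = 0.80). Whether the calls of Hmox1, Prdx4 and others in HDM_CP against PBS_CP differ from HDM_SAL against PBS_SAL is the same interaction, so a difference between the allergen comparisons did not pass for any member.

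Within groups, the members did not vary independently of the library. PBS_CP 76 was the highest of its group for 20 of 35 members, whereas it was the highest for 12.8% of all tested genes, and its median deviation from the group median over the members was 0.193 on the log2 scale. Those members included Slc7a11, Gclc, Gclm, Gsr, Txnrd1, Srxn1, G6pdx, Pgd, Me1, Hmox1 and Nfe2l2. HDM_SAL 54 was the highest of its group for 17 members, against 22.7% of all tested genes, and HDM_CP 96 for 12, against 12.3%. HDM_SAL 72 was the lowest for 16 members and HDM_CP 66 for 12, against 17.5% and 17.3% of all tested genes. HDM_CP 45 was lowest for 7 members (Slc7a11, Gclc, Hmox1, Fth1, Nfe2l2, Prdx4 and G6pdx) and highest for 8, among them Sod1, Sod3 and Gpx4, which is near its share of all tested genes, 20.1% lowest and 20.0% highest. In HDM_CP 45 the markers of monocytes and recruited macrophages summed to 539 TPM and those of alveolar macrophages to 1816 TPM, the lowest of its group, and club markers to 124400 TPM, the highest, and their part was not tested.

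**Figure D5:**
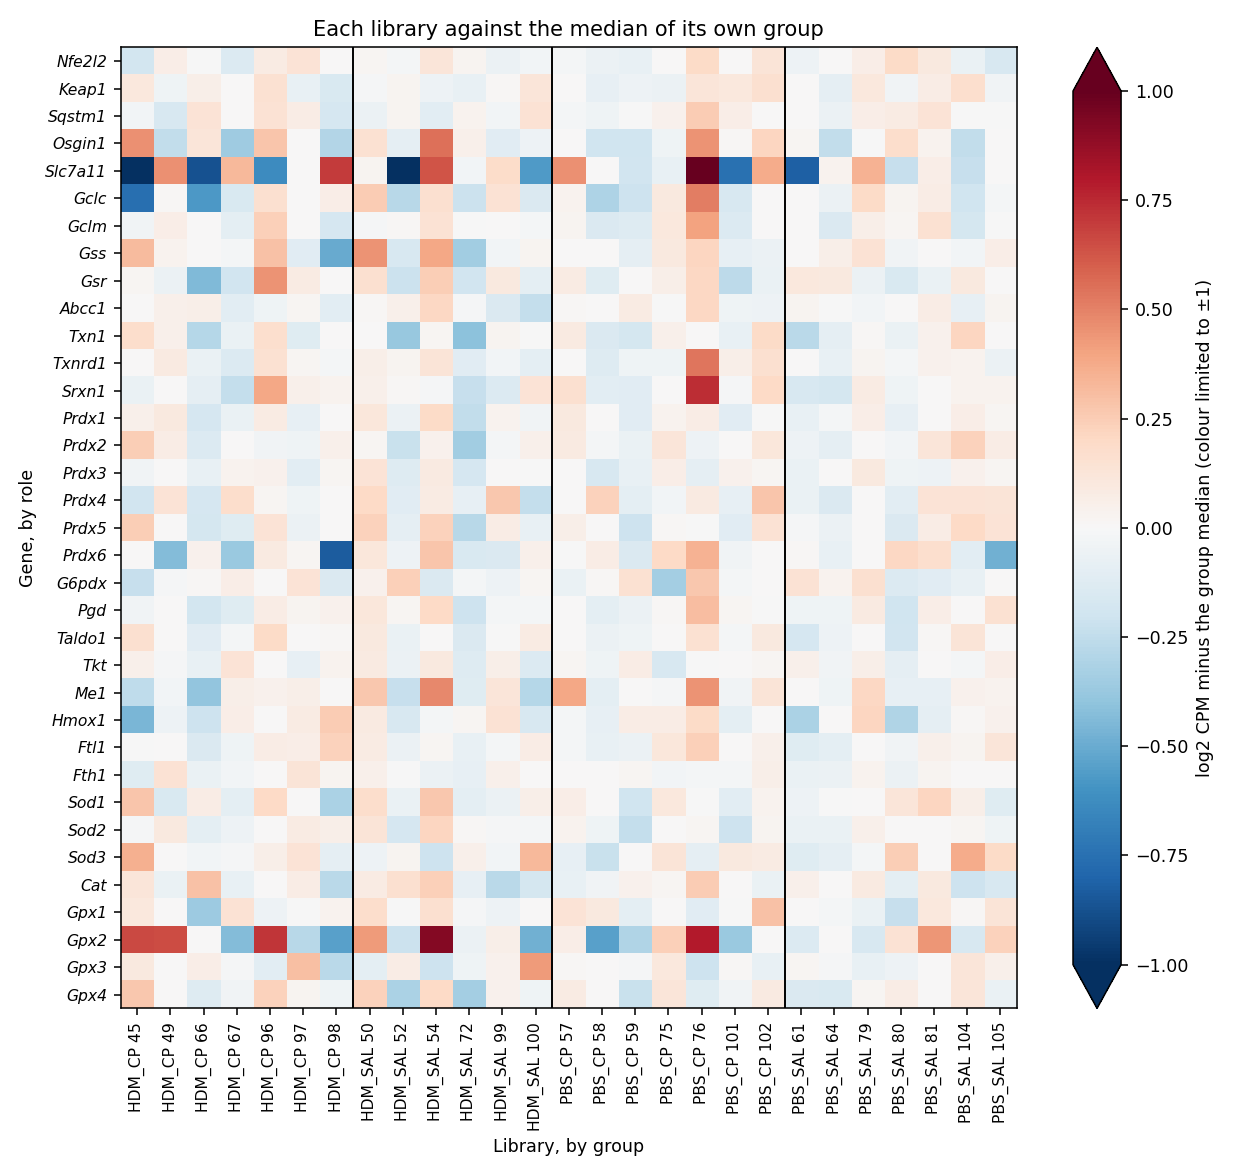
Deviation of each library from the median of its own group, in log2 CPM, for the 35 genes (rows, by role) and 27 libraries (columns, by group), with colours limited to ±1. PBS_CP 76 is above its group for most members, by a median of 0.193, and Slc7a11 and Gpx2 vary most.

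Other genes of the pathway were read from lists written for comparison with the members. The counts called in each list are to be read beside the shares of all tested genes. These were 5.6% higher and 2.27% lower for HDM_CP against PBS_CP, and 3.19% higher and 2.25% lower for HDM_SAL against PBS_SAL. Of 15 NRF2 partners and regulators in the table, edgeR called 2 higher (Brca1 and Dpp3) in HDM_CP against PBS_CP lungs, also without PBS_CP 57, and 1 higher (Brca1) in HDM_SAL against PBS_SAL lungs. Dpp3 kept its call in 17 of 28 other analyses and in 8 of 14 with a library left out (adjusted p up to 0.17). Of 40 further NRF2 targets and glutathione transferases, 2 were higher and 8 lower in HDM_CP against PBS_CP lungs, and 3 were higher and 1 lower in HDM_SAL against PBS_SAL lungs. Their median log2 fold changes were -0.104 and -0.0152. In both comparisons of combustion products with saline, 0 of the 40 were called, with 5 at an unadjusted p under 0.05 in PBS_CP and 7 in HDM_CP lungs. DESeq2 called 1 of them in PBS_CP, Nqo1, and 0 in HDM_CP lungs, and voom called 0 in each. For combustion products averaged over HDM and PBS mice, DESeq2 called Nqo1 higher and Ephx1 lower, and voom called 0.

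Nqo1, the NAD(P)H quinone oxidoreductase often used as a readout of NRF2, had 4.50 to 13.3 CPM in HDM_CP, 2.90 to 9.49 CPM in HDM_SAL, 8.15 to 34.4 CPM in PBS_CP and 5.13 to 9.09 CPM in PBS_SAL lungs. It fell in HDM_CP against PBS_CP lungs with a log2 fold change of -1.09 ± 0.28 (adjusted p = 0.013), and of -0.80 ± 0.24 without PBS_CP 76 (adjusted p = 0.042). In PBS_CP against PBS_SAL lungs its log2 fold change was 1.22 ± 0.28 (adjusted p = 0.22), and 0.92 ± 0.24 without PBS_CP 76 (adjusted p = 0.46). In HDM_CP against HDM_SAL lungs it was 0.54 ± 0.29 (adjusted p = 0.56). Averaged over HDM and PBS mice, the effect of combustion products on Nqo1 was 0.88 ± 0.20 (adjusted p = 0.11). Its interaction was not called (-0.67 ± 0.40, adjusted p = 0.82), and was -0.38 ± 0.34 without PBS_CP 76 (adjusted p = 0.87). Ephx1, microsomal epoxide hydrolase, fell with allergen in both contrasts, by 0.54 ± 0.09 in HDM_SAL against PBS_SAL lungs (adjusted p = 0.00073) and by 0.43 ± 0.09 in HDM_CP against PBS_CP lungs (adjusted p = 0.002). Gstm1 (log2 fold change -0.64 ± 0.13, adjusted p = 0.0032) and the carboxylesterase Ces1g (-1.48 ± 0.34, adjusted p = 0.0063) also fell in HDM_CP against PBS_CP lungs. Without PBS_CP 76 the value for Ces1g was -0.95 ± 0.24 (adjusted p = 0.015). Without PBS_CP 57 all 10 calls among these 40 genes were kept, Nqo1 with a log2 fold change of -1.13 (adjusted p = 0.016). Gsto1, glutathione transferase omega, rose in HDM_SAL against PBS_SAL lungs, at 145 ± 61.1 CPM in HDM_SAL and 70.3 ± 4.38 CPM in PBS_SAL lungs (log2 fold change 1.04 ± 0.20, adjusted p = 0.0036).

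Of 29 further thioredoxin, glutaredoxin and selenoprotein genes, 3 rose and 1 fell in HDM_CP against PBS_CP lungs, and 1 rose and 1 fell in HDM_SAL against PBS_SAL lungs. Glrx, glutaredoxin, which removes glutathione from proteins, rose in both, by 0.56 ± 0.09 in HDM_CP against PBS_CP lungs (adjusted p = 0.00026) and by 0.61 ± 0.09 in HDM_SAL against PBS_SAL lungs (adjusted p = 0.00034). Sesn1, a sestrin, fell in both, by 0.22 ± 0.05 in HDM_CP against PBS_CP lungs and by 0.24 ± 0.05 in HDM_SAL against PBS_SAL lungs (adjusted p = 0.0064 and 0.0085). Of 16 genes of glutathione turnover, 2 rose (Ggt5 and Anpep) and 1 fell (Ggt1) in HDM_CP against PBS_CP lungs, and 1 rose (Ggt5) and 1 fell (Chac1) in HDM_SAL against PBS_SAL lungs. In HDM_SAL against PBS_SAL lungs, Chac1 kept its call in 14 of 27 other analyses and in 3 of 13 with a library left out, and lost it with the run block (adjusted p up to 0.12), and Ggt5 kept its call in 18 of 27 (adjusted p up to 0.15). Without PBS_CP 57 the calls of these lists in HDM_CP against PBS_CP lungs were kept.

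Genes that make oxidants or move iron were called higher in HDM_CP against PBS_CP lungs in 6 of 14 tested genes of NADPH oxidases and other oxidant producers, and in 6 of 15 genes of haem and iron handling. Of all tested genes, 5.6% were called higher in this comparison. Among the oxidase genes, Cybb, which encodes the catalytic subunit of the phagocyte oxidase, averaged 143 ± 48.0 CPM in HDM_CP and 92.8 ± 19.7 CPM in PBS_CP lungs (log2 fold change 0.62 ± 0.18, adjusted p = 0.032). The iron genes were Cd163, Lcn2, Ltf, Tfrc, Slc11a1 and Aco1. Without PBS_CP 57 each list had 5 genes called, since Cybb (adjusted p = 0.056) and Aco1 (adjusted p = 0.076) lost their calls. Cybb was called in 15 of 28 other analyses and in 7 of 14 with a library left out (adjusted p up to 0.13), and Aco1 in 13 and in 5 (adjusted p up to 0.27). Lcn2, which binds bacterial siderophores, averaged 366 ± 158 CPM in HDM_CP and 104 ± 28.0 CPM in PBS_CP lungs (log2 fold change 1.82 ± 0.34, adjusted p = 0.0013). Cd163, the macrophage receptor for haemoglobin, averaged 19.8 ± 7.89 CPM in HDM_CP and 7.64 ± 1.13 CPM in PBS_CP lungs (log2 fold change 1.38 ± 0.22, adjusted p = 0.00037). In HDM_SAL against PBS_SAL lungs, Noxa1 rose and Nox4 and Xdh fell among the oxidant producers, and Lcn2 and Ltf rose among the iron genes. Xdh kept its call in 14 of 27 other analyses and in 5 of 13 with a library left out, and lost it with runs of library numbers as a block (adjusted p up to 0.22). In both comparisons of combustion products with saline, edgeR and voom called 0 genes of these lists. At an unadjusted p under 0.05 there were 6 oxidant producers and 6 iron genes in HDM_CP against HDM_SAL lungs, and 1 of each in PBS_CP against PBS_SAL lungs, and DESeq2 called 1 iron gene, Tfrc, in HDM_CP against HDM_SAL lungs. For combustion products averaged over HDM and PBS mice, DESeq2 called Nos2 and Tfrc, and voom called Tfrc.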

How the data were processed

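The deposited tables held estimated counts and TPM for 27 libraries of whole lung, for which the submitters' processing notes name STAR, with no version, StringTie 2 and the build GRCm39. The tables' own name adds GENCODE M33. The deposited estimated counts were whole numbers summing to between 56.4 M and 84.5 M per library, about 4 times the 20 M read pairs planned, so they were read as estimates and counting error may look smaller than it is. The deposited TPM values, normalized by the authors to a common total per library, carry no depth. Each column carries the number of 1 sample's label, which assigned it, and genes without a symbol held 0.0602% of the counts. Counting is not stated to have used strand, so reads of a gene and of its antisense or overlapping partner may be mixed.

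The counts went through edgeR 4.0.16 under R 4.3.3, with filterByExpr by group (count minimum 10), scaling by the trimmed mean of M values, 1 fit of 4 group means to all 27 libraries, robust quasi-likelihood F tests (two-sided), and Benjamini-Hochberg adjustment over 24629 genes at 0.05. The absolute log2 fold change divided by the square root of F gave each standard error. The fits were tested on simulated data. Named with values were the members called, the 3 with the smallest p where fewer than 3 were called, 16 members listed in the design, and genes of the lists. The values printed for other genes and libraries were chosen after they were seen. The members, lists and rules were chosen with earlier results of these data known. Alternatives were other scaling, DESeq2 1.42.0, limma 3.58.1 with voom or on log2(TPM + 1) and log2(TPM + 0.1), other filters, only the groups compared, runs of library numbers as a block (the labels do not call them batches), airway marker scores as covariates, counts divided by 4, and libraries left out. Hrd1 and Prdx1-ps1 of the lists were not found by symbol, and for 2 symbols listed more than once the entry with the most counts was used. Promoters were those of RefSeq on GRCm38.p6, whose coordinates are not those of the deposited tables.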

Additional observations from a re-analysis of the deposited data

Results flagged for a closer look

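For each of the 35 members the libraries of each group were examined for a highest or lowest value whose gap to its neighbour takes up an unusually large part of the group's range (Dixon's test at 95%). Of 140 groups of libraries examined, 13 held such a value, where chance flags about 1 in 20.

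PBS_CP 76 accounted for 8 of the 13, all as the highest library of PBS_CP. It had 20.41 CPM for Slc7a11, 266.6 CPM for Gclc, 62.78 CPM for Gclm, 155.4 CPM for Txnrd1 and 40.3 CPM for Srxn1. It also had 159.0 CPM for Pgd, 412.3 CPM for Sqstm1 and 329.4 CPM for Cat. Its summed markers of alveolar macrophages (668.6 TPM) and monocytes and recruited macrophages (455.1 TPM) lay within the range of the other PBS_CP libraries, while its lymphocyte markers, 274.1 TPM, were the highest of the group, against 144.4 to 224.0 TPM in the other 6. The club score of PBS_CP 76, 0.657, was also the highest of the group, with PBS_CP 57 next at 0.489. Their part was not tested.

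HDM_SAL 54 was set apart as the highest HDM_SAL library for Osgin1 (23.9 CPM) and Gclm (52.6 CPM). Its club and ciliated scores, 2.71 and 2.825, were the highest of all libraries, and their part was not tested. HDM_CP 96 was the highest HDM_CP library for Srxn1 (31.17 CPM), and PBS_SAL 79 the highest PBS_SAL library for Me1 (75.25 CPM). HDM_CP 66 was the lowest HDM_CP library for Gpx1 (133.6 CPM).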

How the results depend on the processing

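Other settings left 3 to 5 members called for HDM_SAL against PBS_SAL and 7 to 14 for HDM_CP against PBS_CP. These were within 1.5 times the values of 4 and 10. No log2 fold change called in these 2 comparisons changed sign in an alternative run. Some values that were not called did. The interaction of Slc7a11 was -0.345 without PBS_CP 57 and 0.251 without PBS_CP 76. For Gclm in PBS_CP against PBS_SAL lungs, the log2 fold change was 0.046 without PBS_CP 57 and -0.0278 without PBS_CP 76. Leaving out a library in turn left 1 to 5 members called for HDM_SAL against PBS_SAL (1 without HDM_SAL 50 or 99, and 2 without HDM_SAL 54, PBS_SAL 80 or PBS_SAL 81) and 7 to 12 for HDM_CP against PBS_CP. Gclc lost its call for HDM_SAL against PBS_SAL without HDM_SAL 50, 54 or 99, without the 3 libraries with counts under 60 M, with club and ciliated scores as covariates and on log2(TPM + 1) with no filter. For HDM_CP against HDM_SAL, DESeq2 called 2 members and voom 1, and leaving out a library gave 0 to 2 (2 without HDM_CP 45). For combustion products averaged over HDM and PBS mice, DESeq2 called 3 and leaving out a library gave 0 to 2 (2 without HDM_CP 45 and 1 without HDM_CP 66). PBS_CP against PBS_SAL and the interaction had 0 members called under every alternative run. The causes were not tested.

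Over all genes, counts of calls ranged between 602 and 2009 for HDM_SAL against PBS_SAL, against 1339, and between 1194 and 2714 for HDM_CP against PBS_CP, against 1938. They ranged between 1 and 192 for HDM_CP against HDM_SAL (146 without HDM_CP 45), against 1, between 4 and 176 for combustion products averaged, against 12, and between 1 and 32 for PBS_CP against PBS_SAL, against 2, with the highest from DESeq2 in each. On log2(TPM + 1) the split for HDM_SAL against PBS_SAL was 521 higher and 849 lower, against 786 and 553 on counts, and with no filter on counts it was 674 and 274. No paired analysis was possible because the groups share no library numbers in the labels.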
